A study of Mus musculus with 38 samples.

Results

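Gas5 and the small nucleolar RNA host genes Snhg1, Snhg3, Snhg5, Snhg6, Snhg8 and Snhg12 were followed through polysome profiles of mouse oocytes and early embryos. These 7 long non-coding host transcripts were taken by gene symbol from the deposited table of 23125 genes, and all 7 symbols had a row. Only Gas5, Snhg1, Snhg5 and Snhg8 reached the minimum level for testing (0.1 FPKM as the geometric mean of the libraries), which 7967 genes passed. Snhg3, Snhg6 and Snhg12 had geometric means of 0.069, 0.093 and 0.035 FPKM, so their values are described and were not part of the main test.

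The study asked how translation changes between interphase and M-phase from the oocyte to the two-cell embryo. The cells came from ICR mice and were oocytes at the germinal vesicle stage (GV, meiotic prophase) or at metaphase II (MII), fertilized eggs in interphase (zygote) or dividing (zygote M), and embryos of the two-cell stage in interphase (two-cell) or dividing (two-cell M). Lysates of cycloheximide-treated cells were separated on sucrose gradients into 10 fractions, of which the lighter 5 were pooled as the non-polysome sample (NP) and the heavier 5 as the polysome sample (P). Each of the 12 groups held 3 libraries, described by the submitters as biological triplicates, and replicates are named by the letters of the labels (A, B and C, but B, C and D for zygotes). GV oocytes were isolated in a medium that holds meiosis in prophase, MII oocytes had matured in culture, and the M-phase embryos had been treated with nocodazole, a drug that blocks spindle assembly, so that M-phase and the drug cannot be told apart in embryos. The labels give M-phase of meiosis for the zygote M and two-cell M samples, although their titles and the methods place them in mitosis.

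Small nucleolar RNAs (snoRNAs) guide the methylation and pseudouridylation of ribosomal RNA, and most mammalian snoRNAs are cut from introns of host genes. In long non-coding hosts the introns typically carry the snoRNAs, while the spliced exons form an RNA without a long conserved reading frame. Several of these spliced RNAs begin with an oligopyrimidine tract (a 5′TOP start, as in ribosomal protein mRNAs), are bound by ribosomes over short reading frames and are removed by nonsense-mediated decay, a pathway that needs translation. Gas5 was named for its build-up in growth-arrested cells, in which translation is low.

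Positions of the hosts are those of the deposited table (GRCm38), and the snoRNAs were placed by GENCODE M21. Gas5 lies at chr1:161034422-161038539 on the plus strand and holds 8 snoRNAs, all intronic in the spliced isoforms, among them Snord47, Snord78 and Snord80. Snhg1 (chr19:8723475-8726443, plus strand) also holds 8, of which 6 are intronic in every spliced isoform. Snhg3 (chr4:132348014-132353686, minus strand) holds Snora73a and Snora73b, Snhg5 (chr9:88521050-88522929, minus strand) holds Snord50a and Snord50b, Snhg6 (chr1:9941959-9944118, minus strand) holds Snord87 and Snhg8 (chr3:123507552-123508404, minus strand) holds Snora24. Snhg12 (chr4:132308678-132311024, plus strand, with a GENCODE start at 132308623) holds 4, Snora16a, Snora44, Snora61 and Snord99, and each of these lies inside an exon of at least one isoform.

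The 30 bases around the annotated RNA starts are shown because the 5′ pyrimidine tract is the feature that the best known hosts share with ribosomal protein mRNAs. They run from 10 bases before to 20 bases from the RefSeq start (GRCm38.p6), read 5′ to 3′ on the gene's strand, with the longest run of C and T in capitals. RefSeq promoters were found for 6 of the 7 genes, and Gas5 has 2 starts. Their windows are, by gene:
Gas5 (chr1:161034591-161034620, first start): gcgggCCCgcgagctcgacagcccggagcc
Gas5 (chr1:161035156-161035185, second start): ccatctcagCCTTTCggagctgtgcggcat
Snhg1 (chr19:8723477-8723506): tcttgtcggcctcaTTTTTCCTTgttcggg
Snhg3 (chr4:132353667-132353696): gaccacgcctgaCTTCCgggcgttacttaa
Snhg5 (chr9:88522878-88522907): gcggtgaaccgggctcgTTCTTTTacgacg
Snhg8 (chr3:123508317-123508346): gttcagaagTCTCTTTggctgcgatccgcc
Snhg12 (chr4:132308668-132308697): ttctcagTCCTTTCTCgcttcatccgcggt
A start on C with at least 5 unbroken pyrimidines, counted from the start base on and on the gene's strand only, was found at 2 genes. These were the second Gas5 start, with 5, and Snhg8, with 6. The runs in capitals there begin 1 base before the start and so are longer. Such a start was present at 2.51% of all promoters in the table and for 14 of 59 ribosomal protein genes. At Snhg1 and Snhg12 the window held a run of 9 that did not begin with a C at the annotated start, and 7.11% of all promoters held a run as long. A match in letters is a description of the annotated start and does not show where transcription started in these cells.

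The deposited values are FPKM, fragments per kilobase scaled to the mapped fragments of each library, to which 0.01 had been added, so that a value of 0.01 stands for no fragment. With 0.01 subtracted, 80.6% of values of up to 200 fragments were whole multiples of 1 fragment per gene span within 0.05 of a fragment, and from this step the depth was estimated as 8491000 to 26659000 fragments per library. The share was 46.2% for Snhg3, 93.8% for Snhg1 and 95.8% for Snhg8, and all values above the offset were whole for Gas5, Snhg5, Snhg6 and Snhg12, so that the fragments given for Snhg3 are approximate. The kilobase in these values appears to be that of the whole gene span with introns, so levels are compared here between libraries for one gene and not between genes. PCR fragments without molecular identifiers are not independent molecules, and limits from fragment counts cover counting error only. Two-cell M included the shallowest libraries, with 8491000 to 17136000 fragments in NP and 11107000 to 19446000 in P. Of 9 oocyte markers, at least 8 reached 1 FPKM in every group, and their summed level was 4501 to 7812 FPKM in GV and 14.1 to 201 FPKM in two-cell M libraries. The 9 cumulus and granulosa markers summed to at most 23.6 FPKM in MII and 20.7 FPKM in two-cell NP libraries. Of these markers, 1 reached 1 FPKM in MII NP, 1 in MII P, 2 in two-cell NP and 1 in two-cell M P. In the remaining groups 0 did. Has2 and Tnfaip6 were at 0.01 in the GV, MII, zygote, zygote M and two-cell groups. A level is a share of the RNA in a fraction, so that less of a transcript per cell and more of other RNA cannot be told apart.

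Gas5 was detected in all 36 libraries, from 2 to 1735 fragments. In GV oocytes it measured 2.38, 3.88 and 2.98 FPKM in NP and 0.876, 0.739 and 0.353 FPKM in P (replicates A, B and C). In MII oocytes it measured 0.199, 0.693 and 1.06 FPKM in NP against 0.148, 0.397 and 0.205 FPKM in P. Zygotes (B, C and D) held 0.994, 0.524 and 0.714 FPKM in NP and 0.237, 0.354 and 0.229 FPKM in P. The P libraries thus lay below the NP libraries without overlap in GV oocytes and zygotes, while the ranges met in MII. In zygote M the values were 0.0318, 1.08 and 0.297 FPKM in NP and 0.435, 0.0791 and 0.472 FPKM in P, where the lowest value rests on 2 fragments. Two-cell embryos held 2.28, 0.927 and 0.419 FPKM in NP and 0.686, 0.784 and 0.226 FPKM in P. Two-cell M embryos held 10.6, 7.16 and 24.6 FPKM in NP and 10.6, 6.48 and 8.45 FPKM in P, above every other library of the series for this gene. In the order of group medians, both two-cell M groups came first and overlapped each other, GV NP stood apart from its neighbours on either side, and each of the remaining 9 groups overlapped the next.

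**Figure D1:**
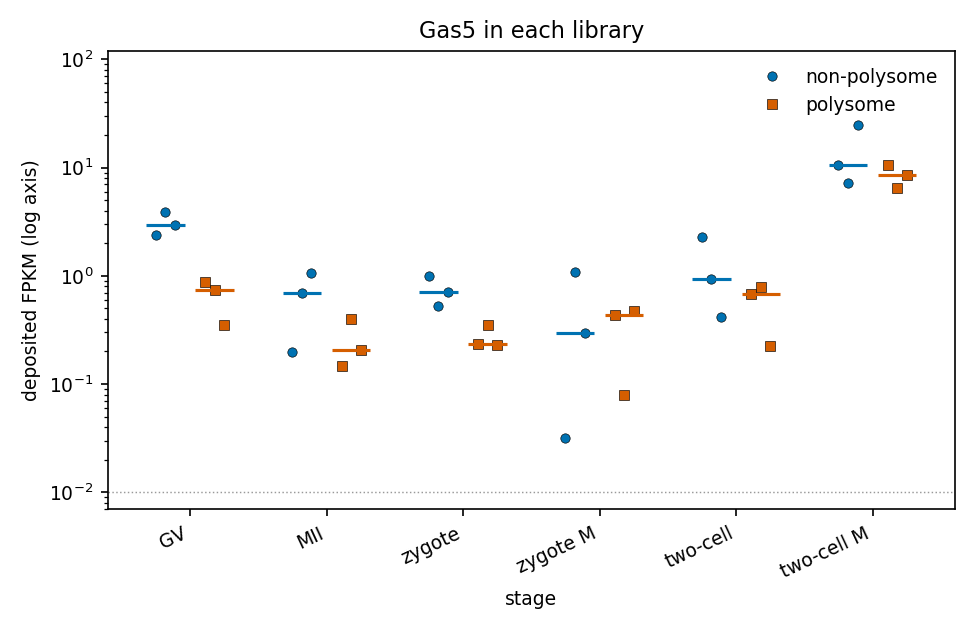
Gas5 in each of the 36 libraries by stage (deposited FPKM, log axis). Circles are non-polysome and squares polysome libraries, bars mark group medians (n = 3) and the dotted line marks 0.01 FPKM, the value for no fragment; the 6 two-cell M libraries, at 6.48 to 24.6 FPKM, sit above all others.

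The first comparison asked whether the hosts were found less in polysomes than in the non-polysome fraction. Averaged over the 6 stages, Gas5 was lower in P by 1.04 on the log2 scale (difference -1.04, SE 0.39, 95% interval -1.84 to -0.23, a 2.05-fold lower level; limma, adjusted p = 0.0485). It was the 1 of 4 tested members called, where called means an adjusted p below 0.05 and a change beyond 2-fold, and 24.9% of all tested genes were called in this comparison and 8.66% were called lower in P. The median difference of all tested genes was +0.34, so that Gas5 lay 1.38 below it (relative difference -1.38). P was below NP in 16 of 18 pairs of libraries with the same stage and letter. The call rests on a narrow margin. It was lost when any of 27 of the 36 libraries was left out (adjusted p 0.00712 to 0.0853 over all 36) and under 7 of 10 other settings (adjusted p 0.0032 to 0.169), among them the addition of 0.1 or 1 FPKM, where the size and not the p fell short. A fit of only the groups compared, counted among the 10, is the main fit again for this average. Its call is therefore no separate support. It was also lost with the replicate block, which pairs P and NP of one letter (adjusted p = 0.0747); both fractions were pooled from gradients, but the labels do not say that a letter marks one gradient. The difference stayed negative in each.

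Snhg1, Snhg5 and Snhg8 did not pass this test. The averaged differences were -0.82 for Snhg1 (SE 0.55, adjusted p = 0.27), -0.08 for Snhg5 (SE 1.08, adjusted p = 0.966) and -1.15 for Snhg8 (adjusted p = 0.408, limma). Their 95% intervals, -1.95 to 0.30, -2.29 to 2.13 and -3.20 to 0.90, leave room for differences of more than 2-fold. Of the 18 pairs with the same stage and letter, P was the lower in 13 and the higher in 4 for Snhg1, 11 and 4 for Snhg8, 8 and 6 for Snhg5, 11 and 5 for Snhg6, 9 and 8 for Snhg3 and 2 and 7 for Snhg12. In the remaining pairs both libraries were at the offset, which was so in 9 pairs for Snhg12, 4 for Snhg5, 3 for Snhg8, 2 for Snhg6 and 1 each for Snhg1 and Snhg3.

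Stage by stage, none of the 24 member differences was called by limma, 2 had an unadjusted p under 0.05, and limma-voom on the recovered fragments also called none. The background share of genes called was 4.96% in GV, 0.753% in MII, 1.38% in zygotes, 1.92% in zygote M, 16.1% in two-cell embryos and 14.8% at two-cell M. For Gas5 the difference was -2.30 in GV (95% interval -4.28 to -0.33, adjusted p = 0.178), -1.20 in MII, -1.42 in zygotes, 0.22 in zygote M, -0.96 in two-cell embryos and -0.56 at two-cell M. All 6 intervals reached values beyond 2-fold lower, and 5 of them also held 0. For P below NP without overlap, which held for Gas5 in GV and in zygotes, the background was 13.9% and 31.3% of tested genes. The size of the Gas5 difference was not shown to vary between stages (moderated F-test, adjusted p = 0.807), nor was that of the other tested members, with 0 of 4 called, 0 of 4 with an unadjusted p under 0.05 and 0 by limma-voom, against 8.2% of all genes.

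**Figure D2:**
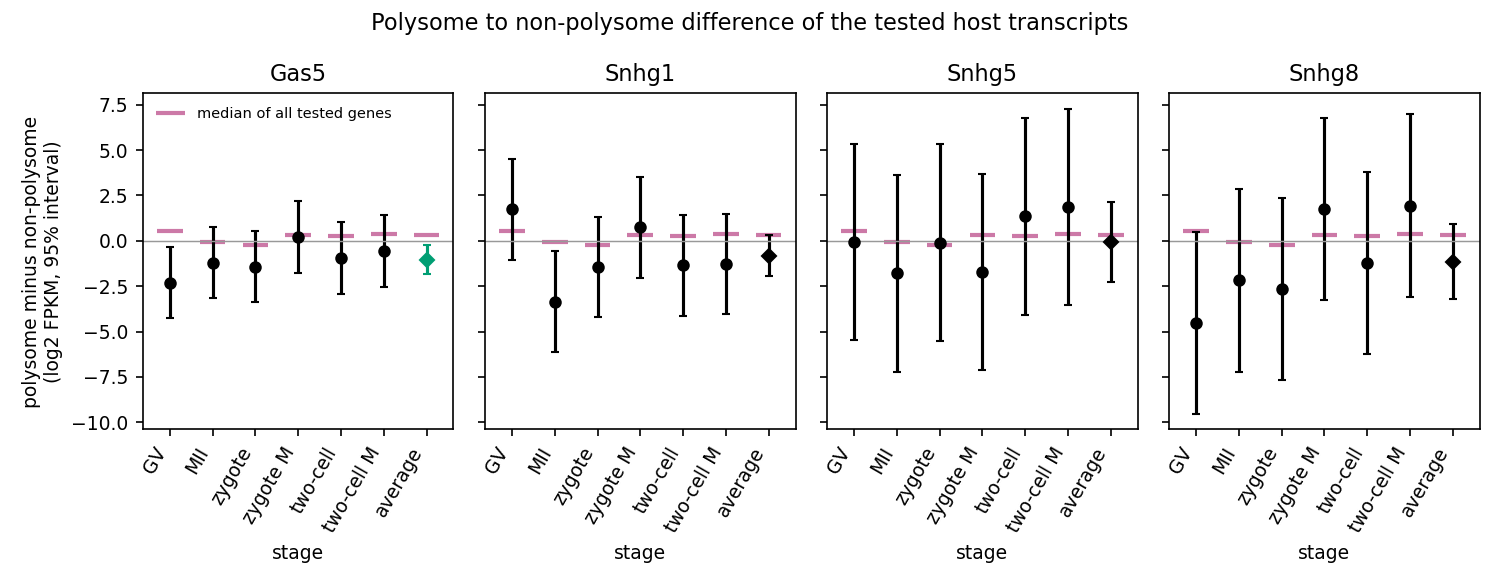
Polysome minus non-polysome difference (log2 FPKM) of the 4 tested host transcripts at each of 6 stages and averaged over them. Points are limma estimates with 95% intervals, the diamond is the average (green where called) and the short bars give the median of all tested genes; the Gas5 average of -1.04 lies below its all-gene median of 0.34.

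The second comparison asked what changed between interphase and M-phase. From two-cell to two-cell M embryos Gas5 rose by 4.08 in P (log2 scale, SE 0.96, 95% interval 2.10 to 6.05, 16.9-fold, limma adjusted p = 0.00158) and by 3.68 in NP (SE 0.96, 95% interval 1.71 to 5.65, 12.8-fold, limma adjusted p = 0.00352). All 3 two-cell M libraries exceeded all 3 two-cell libraries in each fraction, as was so for 15.1% of tested genes in P and 9.82% in NP. Over the same step 36.3% of tested genes were called in P and 36.1% in NP, most of them lower (28.1% and 28.0%), and those called higher were 8.13% and 8.17%. The median gene changed by -1.17 in P and -1.14 in NP, which puts Gas5 5.24 and 4.82 above it. The size of the rise ran from 3.51 to 4.41 in P and from 3.08 to 4.31 in NP with a library of these groups left out. Over 10 other settings it ran from 2.60 to 4.87 in P and from 2.69 to 4.065 in NP. It was lowest with 1 FPKM added, where Gas5 lay 2.77 in P and 2.86 in NP above the median gene. The rise was called in both fractions whichever library of these groups was left out. In NP it fell short when only the groups compared were fitted (adjusted p = 0.0596) and with weights for library quality (adjusted p = 0.24; 5.29e-07 to 0.24 over the other settings). The ratio of P to NP changed by 0.39 between the 2 stages (95% interval -2.40 to 3.18, adjusted p = 0.922), so no shift between fractions was detectable. Summed FPKM was at least 207391 in each two-cell M NP library against at most 162322 in two-cell NP, and 122504 to 152254 against 98351 to 116552 in P. Oocyte markers summed to 14.1 to 128 FPKM in two-cell M NP and 400 to 470 FPKM in two-cell NP, and to 49.3 to 201 against 509 to 577 FPKM in P. Two-cell markers summed to 24.8 to 339 against 414 to 714 FPKM in NP and to 9.29 to 129.5 against 126 to 190.5 FPKM in P. Genes above the offset numbered 8538 to 9271 in two-cell M NP against 10223 to 11455 in two-cell NP. In P they numbered 9542 to 12042 against 12625 to 13480. These differences in library make-up moved with the rise, and their part in it was not tested.

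None of the Gas5 differences at the earlier steps passed the test. From GV to MII the difference was -2.52 in NP (95% interval -4.49 to -0.55, adjusted p = 0.0725) and -1.42 in P (adjusted p = 0.484), and from GV to zygote -2.07 in NP (adjusted p = 0.158). All 3 GV NP libraries lay above all MII and zygote NP libraries, as was so for 17.7% and 18.0% of tested genes. Between zygote and zygote M, Gas5 differed by -0.08 in P and -1.73 in NP, and between zygote and two-cell by 0.89 and 0.42, with adjusted p of 0.301 or more in limma.

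Snhg1, host of C/D box snoRNAs like Gas5, was at 0.01 in 4 of 36 libraries and reached 845 fragments in the highest. In GV oocytes its NP values were 0.76, 0.01 and 0.0265 FPKM, and those in P were 0.639, 0.0432 and 0.268 FPKM. In MII oocytes NP held 1.35, 0.831 and 0.59 FPKM and P 0.256, 0.0588 and 0.0418 FPKM. Zygotes (B, C and D) held 0.969, 1.15 and 0.57 FPKM in NP and 0.43, 0.224 and 0.328 FPKM in P. The NP libraries lay above the P libraries without overlap in MII oocytes and zygotes, as did 18.5% and 31.3% of tested genes. In zygote M the values were 0.146, 0.01 and 0.01 FPKM in NP (9, 0 and 0 fragments) and 0.0737, 0.01 and 0.0918 FPKM in P. Two-cell embryos held 0.609, 9.07 and 1.71 FPKM in NP and 0.597, 1.57 and 0.609 FPKM in P, and two-cell M embryos 11.7, 33.5 and 5.08 FPKM in NP and 3.3, 2.81 and 15 FPKM in P. Both two-cell M groups had the highest medians for Snhg1, as for Gas5.

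Snhg1 changed in the non-polysome fraction at 2 steps. From GV to MII it rose by 3.89 (SE 1.35, 95% interval 1.13 to 6.66, limma adjusted p = 0.0469), where 16.6% of genes were called (13.5% as higher), and from zygote to zygote M it fell by 5.14 (difference -5.14, SE 1.35, 95% interval -7.90 to -2.37, adjusted p = 0.0134), where 10.4% were called (9.36% as lower). The rise rests on 2 GV libraries with 0 and 1 fragments. Replicate A of GV NP, with 56 fragments, lay within the MII range, and the call was lost without GV NP B, GV NP C or any one of the MII NP libraries (differences 2.62 to 5.74 over the 6). The fall was lost without zygote NP C, zygote M NP B or zygote M NP C (adjusted p 0.00489 to 0.0612 over the 6). Both sizes depend on the offset, since no fragment is set to 0.01 FPKM: with 1 FPKM added the differences were 0.64 and -0.84 and neither was called. Of 10 other settings, the rise was called in 2 (adjusted p 0.0452 to 0.393) and the fall in 7 (adjusted p 0.0122 to 0.343). In P the matching differences were -1.19 (adjusted p = 0.733) and -2.96 (adjusted p = 0.26), against 6.11% and 5.75% of genes called. The ratio of P to NP changed by -5.08 between GV and MII (95% interval -8.99 to -1.17, adjusted p = 0.444). This was the 1 of 12 member changes in that ratio with an unadjusted p under 0.05; none was called, by limma or limma-voom, where 0.163% of genes were called for GV to MII, 0.289% for zygote to zygote M and 5.75% for two-cell to two-cell M. From two-cell to two-cell M, Snhg1 differed by 2.64 in P (95% interval -0.12 to 5.41, adjusted p = 0.128) and 2.57 in NP (95% interval -0.19 to 5.34, adjusted p = 0.145), neither called. All 3 two-cell M libraries of P were above those of two-cell P, as for 15.1% of tested genes.

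**Figure D3:**
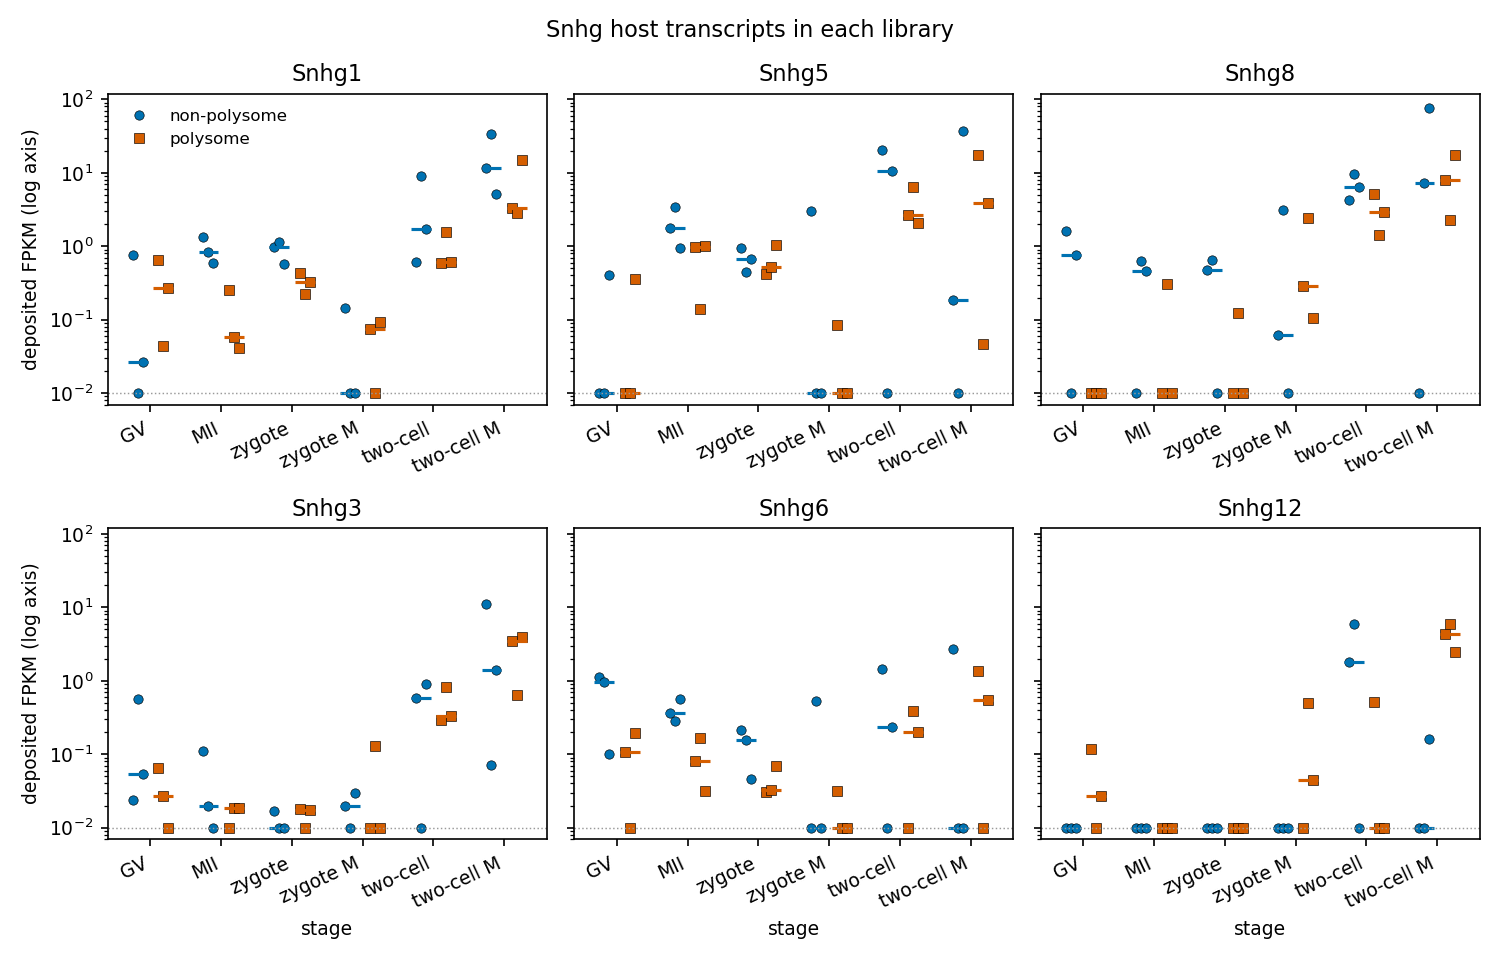
The 6 Snhg host transcripts in each of the 36 libraries by stage (deposited FPKM, log axis). Circles are non-polysome and squares polysome libraries, bars mark group medians (n = 3) and the dotted line is 0.01 FPKM, no fragment; Snhg12 is above 1 FPKM only in 2 two-cell NP and 3 two-cell M P libraries, and Snhg8 is at the dotted line in all 3 GV P libraries.

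Snhg5, which carries Snord50a and Snord50b, had the widest spread of the tested members (SE 2.64 on the log2 scale for a difference at one stage), with 10 libraries at 0.01 and a highest value of 36.8 FPKM. In GV oocytes replicates A and B gave no fragment in either fraction and replicate C gave 0.402 FPKM in NP and 0.353 FPKM in P. All MII and zygote libraries held it, at 0.949 to 3.4 FPKM in MII NP, 0.138 to 1.01 FPKM in MII P, 0.441 to 0.949 FPKM in zygote NP and 0.413 to 1.04 FPKM in zygote P. In zygote M it was again at 0.01 in replicates B and C of both fractions, while replicate A held 2.97 FPKM in NP and 0.0854 FPKM in P. Two-cell P libraries held 2.69, 6.49 and 2.07 FPKM, and two-cell NP 20.5, 0.01 and 10.6 FPKM. Two-cell M values ran from 0.01 to 36.8 FPKM in NP and from 0.0469 to 17.7 FPKM in P. Two-cell M NP alone thus spanned the whole Snhg5 range, and no Snhg5 difference was called at any step. At 0 fragments, 3 fragments would have given 0.0734 to 0.198 FPKM in these libraries, so lower levels were not detectable at this depth.

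Snhg8, the host of Snora24, was at 0.01 in 12 of 36 libraries, of which 1 was a two-cell M library and the others came from GV to zygote M. In GV oocytes it measured 1.59, 0.01 and 0.758 FPKM in NP and 0.01 FPKM in all 3 P libraries, where 3 fragments would have been 0.152 to 0.183 FPKM. MII NP held 0.01, 0.626 and 0.464 FPKM and zygote NP 0.48, 0.644 and 0.01 FPKM, against at most 0.31 and 0.125 FPKM in P. Zygote M replicate B held 3.08 FPKM in NP and 2.46 FPKM in P, and the other zygote M libraries 0.01 to 0.287 FPKM. In two-cell embryos all 6 libraries held it, at 4.3, 9.75 and 6.5 FPKM in NP and 5.16, 1.4 and 2.89 FPKM in P. In two-cell M the values were 0.01, 7.33 and 77.3 FPKM in NP and 8.09, 2.29 and 17.2 FPKM in P. Every two-cell library lay above every zygote library in each fraction, as was so for 16.6% of tested genes in P and 12.3% in NP. The differences from zygote to two-cell were 6.89 in P (95% interval 1.87 to 11.9, adjusted p = 0.0542) and 5.48 in NP (95% interval 0.45 to 10.5, adjusted p = 0.085), neither called by limma, while limma-voom called the first. Snhg8 reached the minimum level only through its two-cell and two-cell M libraries, where it was high. No conclusion is therefore drawn from this test or from the limma-voom call.

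Over both interphase steps, GV to zygote and zygote to two-cell, limma called none of the 8 member differences in P (1 with an unadjusted p under 0.05, and 1 called by limma-voom, that of Snhg8, which passed the minimum level only through the two-cell stages) and none of 8 in NP (3 with an unadjusted p under 0.05, and 0 by limma-voom). The background was 5.61% and 16.0% of genes in P and 13.9% and 34.2% in NP. From zygote to two-cell the differences of Gas5, Snhg1 and Snhg5 were positive in both fractions, but all their 95% intervals held 0. The sign of Snhg8 is not read, since its two-cell levels decided that it was tested. The median gene changed by -0.98 in P and -1.61 in NP over this step. The share of all tested genes with a positive sign was not computed, so no conclusion is drawn from these signs.

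Snhg3, Snhg6 and Snhg12 were below the minimum level. Snhg3, with Snora73a and Snora73b, was at 0.01 to 0.566 FPKM in GV, MII, zygote and zygote M libraries. It measured 0.584, 0.01 and 0.891 FPKM in two-cell NP and 0.289, 0.814 and 0.333 FPKM in two-cell P. In two-cell M it measured 11, 0.0723 and 1.42 FPKM in NP and 3.52, 0.636 and 3.9 FPKM in P. All two-cell P libraries were above all zygote P libraries, which ran from 0.01 to 0.0178 FPKM, and 16.6% of tested genes showed the same order. With no minimum level, limma over all 23125 genes gave a rise of 4.87 from zygote to two-cell in P (95% interval 1.65 to 8.08, adjusted p = 0.0438), where 10.5% of genes were called, and a difference of 3.86 in NP (adjusted p = 0.0872). Snhg3 shares 135 exon bases with Rcc1 on the same strand and 705 with the antisense Gm17300, only 46.2% of its values above 0.01 were whole fragments (within 0.05), and the kit does not mark strand, so its reads cannot be separated from those genes.

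Snhg6, the host of Snord87, was the one member whose highest group median was in GV oocytes. There it measured 1.13, 0.958 and 0.101 FPKM in NP and 0.108, 0.01 and 0.197 FPKM in P. MII oocytes held 0.37, 0.288 and 0.568 FPKM in NP and 0.0819, 0.166 and 0.0318 FPKM in P, which did not overlap, as for 18.5% of tested genes with P below NP. Later values ran from 0.01 to 2.7 FPKM. No difference of Snhg6 was called with no minimum level; the averaged P to NP difference was -1.22 (95% interval -2.95 to 0.51, adjusted p = 0.376). It shares 127 exon bases with Mcmdc2 on the opposite strand.

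Snhg12, which lies about the Snora16a, Snora44, Snora61 and Snord99 snoRNAs, was at 0.01 in 25 of 36 libraries. In MII oocytes and zygotes it gave no fragment in any library, where 3 fragments would have been at most 0.0762 FPKM. Its largest values were in 2 groups. Two-cell NP held 1.79, 5.96 and 0.01 FPKM (80, 185 and 0 fragments) and two-cell P 0.509, 0.01 and 0.01 FPKM. These two-cell ranges overlapped, and the difference between P and NP was not called there (-3.68, limma with no minimum level, adjusted p = 0.204). Two-cell M embryos held 0.01, 0.01 and 0.159 FPKM in NP (0, 0 and 6 fragments) and 4.28, 5.89 and 2.47 FPKM in P (195, 199 and 64 fragments). The P and NP libraries of two-cell M did not overlap, and 10.3% of tested genes showed P above NP without overlap there. With no minimum level, limma gave a difference of 7.30 between P and NP in two-cell M (95% interval 3.91 to 10.7, adjusted p = 0.0057), where 6.27% of 23125 genes were called, and a rise in P of 6.74 from two-cell to two-cell M (adjusted p = 0.00473), where 15.6% were called. In NP the matching difference was -4.24 (adjusted p = 0.0955), after a rise of 5.57 from zygote to two-cell (adjusted p = 0.0184), where 18.0% were called. The P to NP difference changed by 10.98 between these 2 stages (adjusted p = 0.00696), where 2.44% were called. These sizes depend on the 0.01 offset, and the spread behind them is that of groups in which every library was at 0.01, among others.

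The other long non-coding snoRNA hosts gave a background for the members. Of 18 listed, 16 were in the table and 7 were tested. From two-cell to two-cell M, 2 were called higher and 0 lower in P, and 1 higher and 2 lower in NP, with medians of 2.41 and 1.04. Those called higher were Snhg20 and Zfas1 in P and Snhg20 in NP. Snhg20 measured 17.7 to 25.6 FPKM in two-cell M NP and at most 4.17 FPKM in two-cell NP. It passed the minimum level only through its two-cell M libraries, where it was high, so its calls are not read. Of 4 tested members, 1 was called higher and 0 lower in each fraction over this step, with medians of 1.98 in P and 0.45 in NP. Of all tested genes, 8.13% were called higher and 28.1% lower in P over this step and 8.17% and 28.0% in NP. Averaged over stages, 0 of these 7 hosts were called between P and NP, against 24.9% of all tested genes, with a median difference of 0.08 against -0.93 for the 4 tested members and 0.34 for all genes. The median of the 7 hosts was -0.47 after quantile normalization, and that of the members in NP over the two-cell step was -0.12 with equal library totals.

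Of the other lncRNA hosts, 4 are described, Snhg9, Snhg15, Snhg18 and Dancr, taken by their mean deposited FPKM over the libraries, a value per gene span that served only to choose them. Snhg9 was at 0.01 in all 12 zygote and zygote M libraries and at 2.90 to 12.2 FPKM in two-cell libraries. The fitted differences from zygote to two-cell were 9.10 in P and 9.42 in NP, sizes that depend on the offset. Snhg9 passed the minimum level only through the two-cell stages, where it was high, and its zygote libraries did not vary. The test of this step is therefore not read. Snhg15 rose at the same step by 5.51 in P (limma adjusted p = 0.00482) and 6.09 in NP (adjusted p = 0.000952), to 4.18 to 20.4 FPKM. Of all tested genes, 6.15% were called higher in P and 6.59% in NP from zygote to two-cell. Of the 7 tested hosts 3 were called higher in each fraction, Snhg9, Snhg15 and Zfas1. Snhg18 measured 2.68 to 9.08 FPKM in GV, 8.31 to 8.68 FPKM in MII NP, a median of 2.49 FPKM in MII P, 1.01 to 2.36 FPKM in zygotes, 2.16 to 5.71 FPKM in zygote M, 0.01 to 4.86 FPKM in two-cell NP (median 0.747), 0.753 to 0.828 FPKM in two-cell P, 0.01 to 0.038 FPKM in two-cell M NP and 0.01 to 1.69 FPKM in two-cell M P, so that its ranges in oocytes and zygote M overlapped. In NP the step from two-cell to two-cell M was called lower (-4.40, adjusted p = 0.0161), although the ranges overlapped and the size depends on the offset, and in P it did not pass (-3.02, adjusted p = 0.0986). Dancr was not tested, and it reached 7.37 to 22.7 FPKM in two-cell M against at most 4.39 FPKM in two-cell libraries.

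Host genes that also code for proteins, many of them for ribosomal proteins and translation factors, were tested for 41 of 46 listed. From two-cell to two-cell M, 13 rose and 1 fell in P (median 1.65) and 10 rose and 3 fell in NP (median 1.45). Over all tested genes 8.13% were called higher and 28.1% lower in P and 8.17% and 28.0% in NP. The count that rose depended on the scaling and ran from 11 with equal library totals to 22 with quantile normalization in P, and from 7 to 14 in NP. Averaged over stages, 4 were higher and 4 lower in P, where 16.3% of all tested genes were called higher and 8.66% lower, with a median of -0.23 that became 0.12 with equal library totals. The largest were Tnpo2, a nuclear import receptor (2.13, adjusted p = 0.000383), and Rpl7a (1.95, adjusted p = 0.00609) on the higher side, and Eif4g2, a translation initiation factor of the eIF4G family (-1.94, adjusted p = 3.08e-05), and Rpl30 (-1.65, adjusted p = 0.0167) on the lower.

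Ribosomal protein mRNAs, the classical 5′TOP transcripts, were tested for 77 of 80 genes. Averaged over stages, 1 was called higher and 20 lower in P, with a median difference of -0.56 (-0.60 after quantile normalization and -0.21 with equal library totals, where 12 were called lower), and 64 of 77 differences were below 0. Of all tested genes, 16.3% were called higher and 8.66% lower in P in this averaged comparison. The called falls of largest size were Rplp2 (-1.79, adjusted p = 1.22e-07) and Rps21 (-1.77, adjusted p = 2.23e-05), and the 1 gene called higher was Rpl7a, given above. From two-cell to two-cell M, 53 rose and 1 fell in P (median 2.73) and 49 rose and 1 fell in NP (median 2.47), where 8.13% of all tested genes were called higher and 28.1% lower in P (median -1.17) and 8.17% and 28.0% in NP (median -1.14). These counts describe the lists, and no test compared the lists with the members.

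snoRNP proteins and their assembly factors, which package the snoRNAs, were tested for 17 of 21 genes. From two-cell to two-cell M, 7 rose and 1 fell in P (median 2.33) and 8 rose and 2 fell in NP (median 1.93), against 8.13% of all tested genes called higher and 28.1% lower in P and 8.17% and 28.0% in NP. With equal library totals 5 rose in P and 5 in NP, with quantile normalization 12 and 8, and with limma-voom 10 and 9. Averaged over stages, 3 were lower and 0 higher in P (1 and 2 with equal library totals), among them Nop58, a core C/D box protein (-1.86, adjusted p = 0.00143), and Snu13, which binds the kink-turn of box C/D RNAs (-1.33, adjusted p = 1.02e-07). Of all tested genes, 8.66% were called lower and 16.3% higher in P in this averaged comparison. Of 24 nonsense-mediated decay factors 12 were tested. Averaged over stages, Magoh, a subunit of the exon junction complex, was lower in P (-2.55, adjusted p = 2.15e-09) and Smg9, a regulator of the SMG1 kinase, was higher (1.87, adjusted p = 0.0248), a call that quantile normalization ended (0 higher and 3 lower). These were the 1 lower and 1 higher call of the 12, against 8.66% and 16.3% of all tested genes. From two-cell to two-cell M, 4 of the 12 rose and 3 fell in P and 3 rose and 2 fell in NP, where 1 rose and 2 fell with equal library totals and 3 and 0 with quantile normalization.

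**Figure D4:**
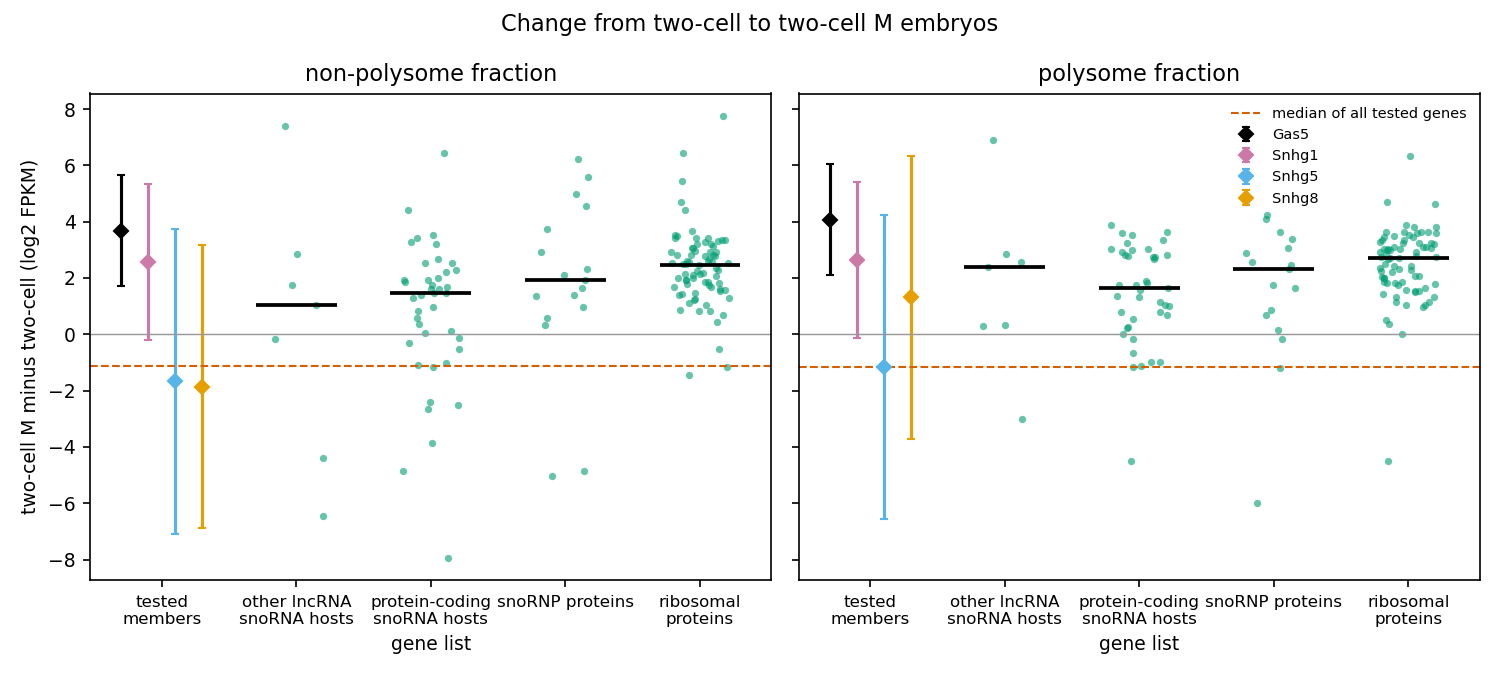
Change from two-cell to two-cell M embryos (log2 FPKM) in the non-polysome and polysome fractions. Diamonds are the 4 tested members with 95% intervals, dots are the tested genes of each list with their median as a bar, and the dashed line is the median of all tested genes (-1.14 in NP, -1.17 in P); Gas5 stands at 3.68 and 4.08.

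The tested genes whose log2 FPKM followed each member most closely over the 36 libraries were named as a description, since the libraries share stages and depth. For Gas5 these were Ppia, which encodes cyclophilin A (Pearson r = 0.82), Gm10123 (0.81) and Pemt, a phosphatidylethanolamine methyltransferase (0.80). For Snhg1 they were Dnajb9, an endoplasmic reticulum co-chaperone (0.85), Zfp707 (0.83) and Map1lc3a (0.82). For Snhg8 they were Serp1 (0.75), Bambi (0.73) and Crb3 (0.72), and for Snhg5 Psmb10 (0.70), Gm4567 (0.68) and Dhps (0.66). Between the members themselves r was 0.50 for Gas5 and Snhg1, 0.46 for Gas5 and Snhg8, 0.42 for Snhg1 and Snhg8, 0.38 for Snhg1 and Snhg5, 0.27 for Snhg5 and Snhg8 and 0.06 for Gas5 and Snhg5. These pairs were fixed, whereas the genes above were picked as the highest of all tested, so the r values of the 2 kinds are not comparable.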

How the data were processed

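RNA from pooled non-polysome and polysome gradient fractions was sequenced from SMART-seq v4 libraries without strand. Per the labels and methods, the authors trimmed reads with Trim Galore 0.4.1, mapped them to GRCm38 with STAR 2.5.3a and deposited normalized FPKM values from Partek. The methods name RefSeq genes and an exon model, but 5982 of 6032 genes whose values share a common step gave the same depth when scaled by gene span, and 80.6% of 281635 values of up to 200 fragments were then whole within 0.05. Of 38 samples, 2 zygote samples have no column and were not analysed here.

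The FPKM as deposited were put on the log2 scale without a further offset, and limma 3.58.1 (R 4.3.3) estimated 12 group means from the 36 libraries, its empirical Bayes step allowing a trend. The 7967 genes tested had geometric means of 0.1 FPKM or more. Benjamini-Hochberg adjustment ran over these. Calls needed an adjusted p below 0.05 and a change beyond 2-fold, tests are two-sided, and the scripts were tested on simulated data. Fold changes of low genes depend on the 0.01 offset. The members, the gene lists and the minimum level were chosen with earlier results of these data known. Named genes were all members, the 3 genes closest to each tested member, in each list the 2 largest called rises and falls of the averaged difference, and the 4 other hosts of highest mean. Marker lists covered oocytes, two-cell embryos, cumulus and granulosa cells, and sperm. Of the 2-cell markers 7 were in the table, and they summed to 126 to 714 FPKM in two-cell and 9.29 to 339 FPKM in two-cell M libraries. In GV they summed to 141 to 204 FPKM in NP and 176 to 323 FPKM in P. In P this sum thus did not place two-cell above GV libraries. All 7 reached 1 FPKM in both two-cell groups, against 3 in GV NP and 2 in GV P. The 4 sperm markers in the table summed to at most 6.33 FPKM in any library. The alternatives were other offsets, filters and scalings, library weights, a replicate block, each library left out and, added after seeing the data, limma-voom on recovered fragments. Python 3.11.15 with pandas 2.3.3 was used, and annotation came from GENCODE M21.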

Additional observations from a re-analysis of the deposited data

Results flagged for a closer look

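Snhg12, which was below the minimum level, was flagged for its P to NP difference in the 2 two-cell stages. The size of this change depends on the 0.01 offset. Libraries without a fragment numbered 1 in two-cell NP, 2 in two-cell P and 2 in two-cell M NP. The change of its P to NP difference from two-cell to two-cell M was 10.98 on the log2 scale in the limma fit with no minimum level (adjusted p = 0.00696, where 2.44% of 23125 genes were called). Two-cell embryos held 0.01 to 5.96 FPKM in NP and 0.01 to 0.509 FPKM in P, which overlap, and two-cell M embryos 0.01 to 0.159 FPKM in NP and 2.47 to 5.89 FPKM in P, which do not. The moderated F-test over the 6 stage differences did not pass (adjusted p = 0.0662). In the fit with the minimum level the same change was called for 1 of the 7 other tested long non-coding snoRNA hosts, Snhg10 (6.74, adjusted p = 0.0296), against 5.75% of all 7967 genes. Snhg10 was looked up after its value was seen, and its size depends on the offset, since its two-cell M NP libraries were at 0.01, 0.01 and 1.13 FPKM. Depth was 8491000 to 19446000 fragments in two-cell M and 13240000 to 21018000 fragments in two-cell libraries, and its part in the change was not tested.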

How the results depend on the processing

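The calls most exposed to the processing were the averaged Gas5 difference and every call at a single stage step other than Gas5 in two-cell M. That Gas5 rise was called in all 10 other settings in P and in 8 of 10 in NP. Counts of member calls changed as follows. For P against NP by stage (0 called), 1 was called with 1 FPKM added, with no minimum level or with quantile normalization, and 2 with only the groups compared or with library weights, settings that also raised the calls over all genes from 60 to 514 and 727 in MII and from 110 to 1605 and 1826 in zygotes. For the average over stages (1 called), 0 were called with 0.1 or 1 FPKM added, with no minimum level, with equal library totals, with library weights, with the replicate block and with limma-voom, and 2 with quantile normalization. For M-phase against interphase in the P to NP difference (0 called), 1 was called with no minimum level. For M-phase in polysomes (1 called), 2 were called with 0.1 or 1 FPKM added, no minimum level or quantile normalization, 3 with only the groups compared and 5 with library weights. Library weights called 2228 and 3070 of all genes in P from GV to MII and zygote to zygote M, against 487 and 458, and 2042 against 2890 from two-cell to two-cell M. Fitting only the groups compared called 2162, 2635 and 1668 of all genes at these steps, in the same order. In non-polysomes (3 called), 4 were called with 0.1 FPKM added, 2 with no minimum level, quantile normalization, equal library totals or limma-voom, and 0 with only the groups compared. For interphase steps in polysomes (0 called), 1 was called with 0.1 FPKM added, no minimum level or limma-voom, 2 with only the groups compared or library weights and 3 with quantile normalization. Over all genes, calls from GV to zygote in P went from 447 to 2466 (only the groups compared), 2285 (library weights) and 1410 (quantile). From zygote to two-cell they went from 1272 to 2695, 3094 and 1990, in that order. For the interphase steps in non-polysomes (0 called), 1 was called with 0.1 FPKM added, no minimum level, equal library totals, only the groups compared, library weights or the replicate block, and 2 with 1 FPKM added or quantile normalization. Over all genes, calls from GV to zygote in NP went from 1109 to 1661 (1 FPKM added) and 1998 (quantile). From zygote to two-cell they went from 2723 to 2219 and 2526. The cause was not tested. With each library left out in turn, the counts ran from 0 to 1 for the average, from 1 to 4 for M-phase in non-polysomes and from 0 to 1 for interphase steps in non-polysomes. Same-letter P and NP libraries correlated weakly (mean r of residuals 0.0756, over 0.1 in 6 of 18 pairs, 12 of 18 best with their own letter), against a mean r of 0.0205 in P and 0.0176 in NP between the same letter of different stages. The 12 of 18 are a hint from the data that letters pair P and NP, but the labels do not say so and not every pair passed 0.1, so the block was kept as an alternative; with the replicate block the averaged Gas5 difference was -1.04 (adjusted p = 0.0747) and 2060 genes were called against 1985. Snhg5's averaged difference turned positive with equal library totals (0.27) and limma-voom (0.0069), and ran from -0.66 to 0.47 with each library left out. Scaling moved the all-gene median of the averaged difference from 0.34 to -0.01 (quantile) or 0.69 (equal library totals), and the split of calls from 1295 higher and 690 lower to 1028 and 1229 or 2093 and 395. Relative to that median, Gas5 was at -1.44 with quantile normalization, -1.06 with 0.1 FPKM added and -0.51 with 1 FPKM added, against -1.38; equal library totals shift all genes alike and cannot move this value. With 1 FPKM added, 562 genes were called in place of 1985. In two-cell M polysomes the split went from 648 higher and 2242 lower to 1482 and 1490 with quantile normalization (all-gene median -1.17 and 0.22), where Gas5 rose by 4.87. In two-cell M non-polysomes the count fell from 2878 to 875 with only the groups compared. Low fragment counts limit Snhg3, Snhg6 and Snhg12, which held under 10 fragments in 23, 22 and 29 libraries.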
